A study of Mus musculus with 5 samples.

Results

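The genes described here encode the machinery of mitosis and chromosome segregation, and they were measured in mouse spleens lacking Sirt6. They were chosen by name as a list of 45 genes, and every array probe whose annotated gene symbol matched a name was taken. Of the 45, 41 had a probe (63 probes in all) and 40 had a value on all 5 arrays, among 9000 such genes out of 14654 symbols on the array. Ccnb1, Cenpf, Ncapg and Mki67 had no probe under these symbols, and the only probe of Kif20a had no value on any array. Each array carried spleen RNA of 1 mutant sample in Cy5 and RNA of a pool of wild-type spleens in Cy3, with 15 ug of amplified RNA per dye and no dye swap. One group had 2 arrays of Sirt6 knockout spleens (S6-/-), called knockout arrays 1 and 2. The other had 3 arrays of spleens with the same knockout that also lacked 1 copy of Rela (S6-/- RA+/-), called heterozygous arrays 1, 2 and 3. Sirt6 is a chromatin-bound deacetylase, and Rela is p65, a subunit of NF-kB. The design asks how the knockout spleen differs from wild type and whether the missing copy of Rela alters that difference. The sources used here do not give strain, age, sex, the number of spleens in the pool or the form of the mutant alleles, nor which cells carry the deletions.

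Mitosis starts when cyclin-dependent kinase 1, bound to A- and B-type cyclins, is switched on, after which chromosomes are condensed, attached to spindle microtubules at their kinetochores, pulled apart and separated by cytokinesis. A checkpoint holds the anaphase-promoting complex inactive until every kinetochore is attached. Transcripts of this machinery are made mainly in late S, G2 and M phase, so that in a tissue they mark dividing cells. In the mouse spleen these include erythroblasts of the red pulp and activated lymphocytes. In a piece of tissue, fewer dividing cells and less RNA per dividing cell cannot be told apart.

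All values are read as log2 ratios of mutant spleen over pool, although the sources used here do not give log base, direction or normalization. Each array was centred on its median. Between 19768 and 22871 of 38784 spots had a value on an array. Of 2 Sirt6 probes, 1 had no value on any array and the other read -4.31 on heterozygous array 2, far below the pool, and was blank on the other 4 arrays. The knockout was thus checked on that array alone. The only Rela probe read 0.48 and 1.07 in the knockout group and -0.08 and -0.20 on heterozygous arrays 2 and 3. The values on heterozygous arrays 2 and 3 lie below the knockout arrays but near the pool, so that 1 probe does not settle those labels. The probe read 1.15 on the remaining array, which goes against its label and is called the library labelled heterozygous 1. Where the 3 heterozygous arrays are listed together, its value comes first. Heterozygous array 3 stood apart from the others: across all 9000 genes it correlated with the remaining arrays at r between -0.16 and 0.21, where the knockout arrays correlated at 0.82. Results on the heterozygous group are therefore also given without each of these arrays. The pool counts as 1 control sample, so that the spread between wild-type spleens is not in any test. The labels number the arrays of a group without naming the animals, and the spread behind each p-value is that between these arrays, which may be technical. The arrays give ratios and no levels, so the tissue label could not be checked. On all arrays 10 of 12 B cell and 7 of 10 T cell markers gave a value, as did 9000 of 14654 symbols.

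Most mitosis genes lay on the same side of the pool as each other on each array, and that side and the distance from the pool differed from array to array. On the knockout arrays 39 and 40 of the 40 genes lay below the pool, with medians of -1.62 and -1.90. On the library labelled heterozygous 1, 38 of 40 were below it, with a median of -1.30. On heterozygous array 2 all 40 were also below the pool, but close to it, with a median of -0.45 and a range from -1.22 to -0.07. Heterozygous array 3 lay on the other side, with 38 of 40 above the pool, a median of 1.09 and a highest value of 2.88. Over all 9000 genes the array medians lay between -0.06 and 0.05, and between 45.4% and 52.5% of genes were below the pool.

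**Figure D1:**
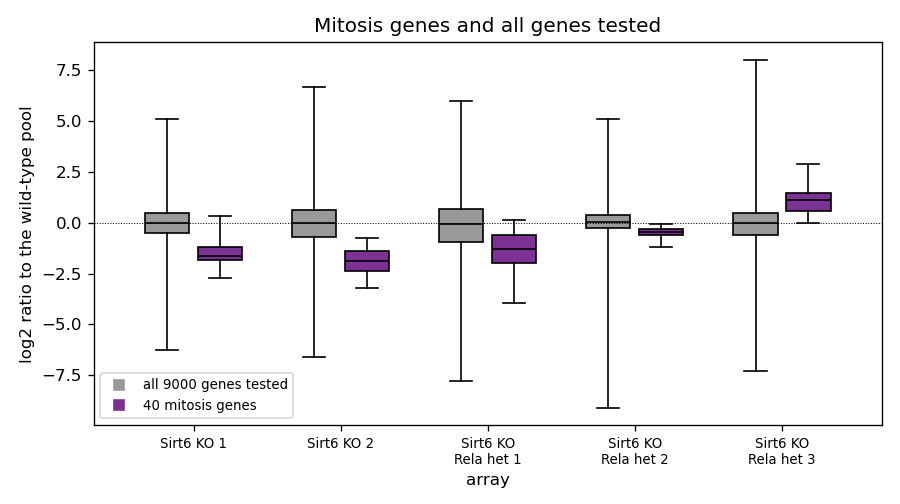
Box plots of log2 ratios to the wild-type pool on each array, for all 9000 genes tested (grey) and for the 40 mitosis genes (purple); boxes span the quartiles, lines are medians and whiskers reach the lowest and highest gene. Most mitosis genes lie below the pool on both knockout arrays and on the library labelled heterozygous 1 (median -1.30). They lie near it on heterozygous array 2 and mostly above it on heterozygous array 3, while all genes are centred near 0 throughout.

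Heterozygous array 3 held the highest of the 5 values for 40 of 40 genes, against 28.2% of all genes tested. Heterozygous arrays 2 and 3 both lay above both knockout arrays for 39 of 40 genes, against 29% of all genes, and the exception was Ccna2. All 3 heterozygous arrays lay above both knockout arrays for 23 genes (14.4% of all genes). The library labelled heterozygous 1 lay below the knockout mean for 14 of the 40 (51.6% of all genes). The order of the heterozygous arrays was also shared: the library labelled heterozygous 1 was lowest and array 3 highest of the 3 in 32 of 40 genes, against 20.9% of all genes. How far single genes lay from each other differed by array, with an SD between genes of 0.26 on heterozygous array 2, 0.55 and 0.65 on the knockout arrays, 0.65 on heterozygous array 3 and 1.06 on the library labelled heterozygous 1. Over all genes the SD was 0.76 on heterozygous array 2, 0.94 and 1.12 on the knockout arrays, 0.97 on heterozygous array 3 and 1.29 on the library labelled heterozygous 1.

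**Figure D2:**
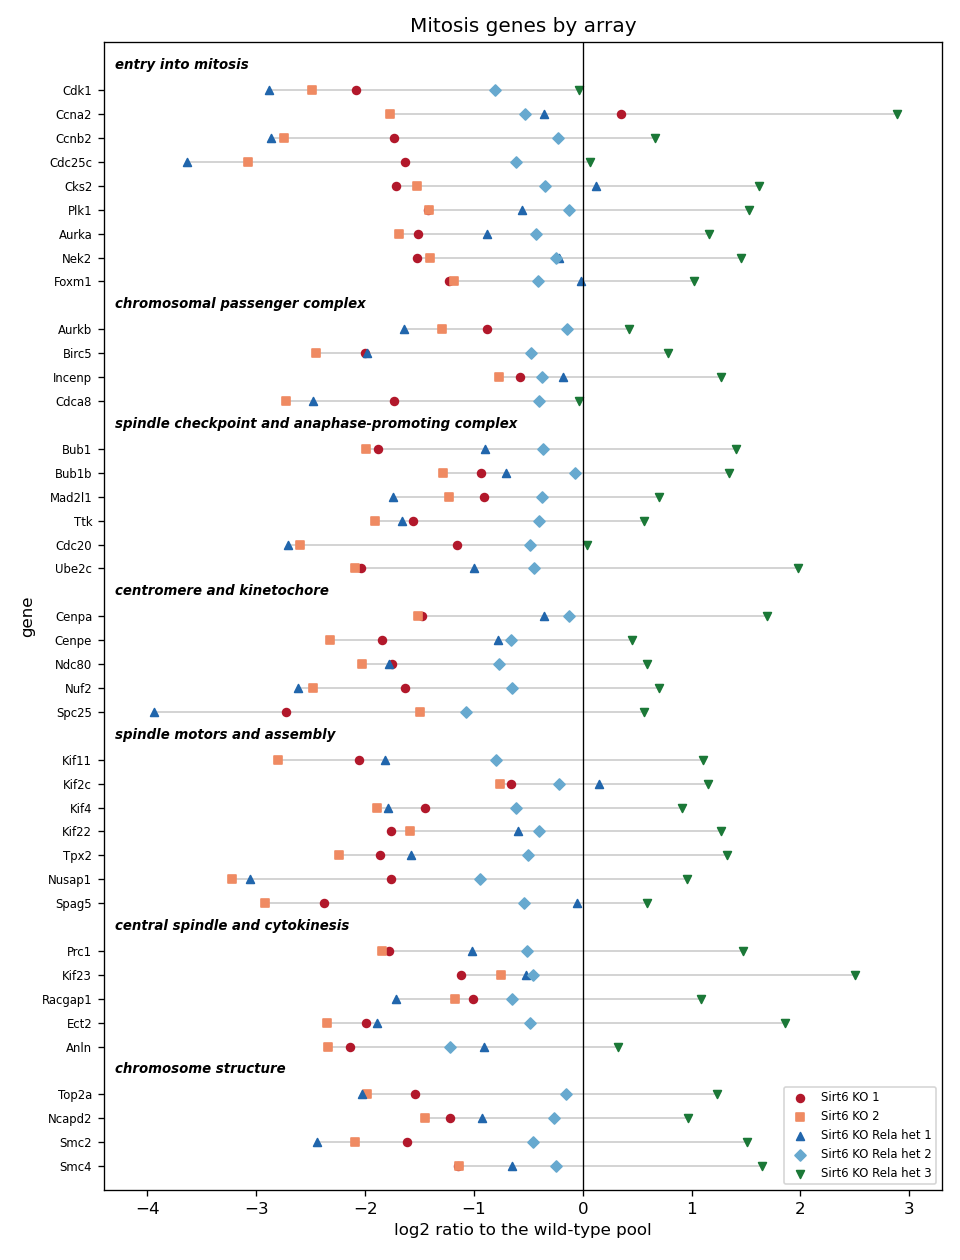
Log2 ratio to the wild-type pool (horizontal axis) of each of the 40 mitosis genes with a value on all arrays, grouped by role; each symbol is 1 array and a grey line joins the lowest to the highest. The green triangles of heterozygous array 3 are rightmost in all 40 genes, and the light blue diamonds of heterozygous array 2 all lie between -1.22 and -0.07.

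Promoters were compared because genes of late cell cycle are known to share promoter elements. These are the CCAAT box, bound by NF-Y, and the cell cycle homology element, through which complexes containing MuvB and FOXM1 act. The 45 genes were chosen by name from such genes, so that a high share of these elements does not depend on the array values. Whether the elements have a part in the array values was not tested. RefSeq promoter sequences (GRCm38.p6, 250 bases before to 50 bases after the annotated start) matched 37 of the 45 genes by symbol, with 39 starts. The letters TTTGAA, searched on both strands as the core of the second element, were found in 76.9% of the 39 promoters, against 12.3% of 9424 promoters of the other tested genes and 17.9% of all 32851 promoters. CCAAT, also on both strands, was found in 82.1%, against 37.7% and 37.4%. Both were found in 69.2%, against 4.91% and 6.95%. Among the other tested genes, the 437 with both had medians of -0.18 and -0.22 in the knockout group and -0.27, -0.04 and 0.02 in the heterozygous group. The 6917 without both had medians between -0.04 and 0.06. Only the 45 genes were set aside, so that both sets can hold other mitosis genes, such as those of the further list below. Their part in these medians was not tested. A match is a string of letters and not a shown binding site. The 7 promoters with both strings inside the 100 bases before the start are printed below 5′ to 3′ on the gene's strand, with every TTTGAA and CCAAT of either strand in capitals (TTCAAA and ATTGG are their reverse complements).
Cdk1 (chr10:69352913-69353012, minus strand): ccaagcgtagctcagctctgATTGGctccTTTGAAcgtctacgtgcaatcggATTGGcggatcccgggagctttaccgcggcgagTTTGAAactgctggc
Cdc20 (chr4:118437344-118437443, minus strand): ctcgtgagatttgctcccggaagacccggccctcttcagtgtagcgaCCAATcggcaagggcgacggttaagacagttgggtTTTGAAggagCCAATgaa
Ube2c (chr2:164769829-164769928, plus strand): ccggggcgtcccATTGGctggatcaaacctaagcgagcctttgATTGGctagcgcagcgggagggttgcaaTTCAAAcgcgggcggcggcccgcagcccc
Kif11 (chr19:37376282-37376381, plus strand): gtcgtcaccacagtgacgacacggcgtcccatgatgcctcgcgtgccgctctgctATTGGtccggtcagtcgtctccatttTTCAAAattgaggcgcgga
Kif22 (chr7:127042421-127042520, minus strand): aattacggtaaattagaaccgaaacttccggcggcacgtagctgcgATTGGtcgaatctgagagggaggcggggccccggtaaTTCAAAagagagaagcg
Prc1 (chr7:80294376-80294475, plus strand): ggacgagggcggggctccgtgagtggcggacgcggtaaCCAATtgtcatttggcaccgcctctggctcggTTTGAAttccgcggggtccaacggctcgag
Top2a (chr11:99024190-99024289, minus strand): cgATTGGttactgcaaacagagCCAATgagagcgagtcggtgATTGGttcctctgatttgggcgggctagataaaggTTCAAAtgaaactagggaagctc
In all 7 the TTTGAA nearest to the start begins within 30 bases of it, from 15 bases before the start in Cdk1 to 30 in Prc1. A CCAAT begins farther upstream, at 45 bases in Kif11, 48 in Cdk1, 53 in Cdc20, 54 in Kif22, 57 in Ube2c, 58 in Top2a and 62 in Prc1. Cdc20 has another CCAAT nearer to the start, at 8 bases. The 7 were picked for having both strings in the bases printed, so that these positions do not describe the other promoters. For example, TTTGAA was found only after the start in Aurka, Plk1 and Ttk (bases 33, 31 and 8), and 103 bases before it in Kif2c.

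In the knockout group the mean of all 40 genes lay below the pool, where 51.6% of all genes tested did, and both arrays were below it for 39 genes (41.9% of all genes). The median of the 40 means was -1.79, which is a ratio to the pool, and the range ran from -2.65 for Spag5 to -0.68 for Incenp. Limma, fitted on all 9000 genes with both groups sharing their estimate of spread, called 0 of the 40 at an adjusted p under 0.05, as it called 0% of all genes. At an unadjusted p under 0.05, 29 of 40 genes were lower and 0 higher, where 10.6% of all genes were lower and 9.82% higher. Fitted to the knockout arrays alone, on 1 residual degree of freedom, limma called 38 of 40 (36.9% of all genes). When the 25% of genes that varied least were not tested it called 19 (9.5% of those tested). That second fit had infinite prior degrees of freedom, so that every gene was given the same spread. Without knockout array 1 the unadjusted count was 11 (4.53% of all genes), and without knockout array 2 it was 3 (2.86%).

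Genes of entry into mitosis had 9 of 10 members measured. In the knockout group 8 of them were lower at an unadjusted p under 0.05 (10.6% of all genes). Cdk1, the kinase that drives entry, lay at -2.08 and -2.49 on the knockout arrays and at -2.88, -0.81 and -0.04 on the heterozygous arrays. Its knockout mean was -2.29 ± 0.65 (SE, n = 2, limma adjusted p = 0.142), and the groups overlapped because the library labelled heterozygous 1 had the lowest value. The value of -0.04 is the mean of a complete probe at 0.43 and of a probe that gave its only value, -0.50, on heterozygous array 3. Ccnb2, a B-type cyclin that activates Cdk1, lay at -1.73 and -2.74 and at -2.86, -0.23 and 0.67, again lowest on that library. Cdc25c, a phosphatase that removes the inhibitory phosphates of Cdk1, lay at -1.63 and -3.08 and at -3.63, -0.61 and 0.07, but its probes spread from -5.72 to -1.54 on the library labelled heterozygous 1. Ccna2 differed from the rest: this A-type cyclin, active in S phase as well as in G2, lay at 0.35 and -1.78 on the knockout arrays and at -0.36, -0.53 and 2.88 on the heterozygous arrays. It was the 1 gene above the pool on knockout array 1 and the highest of the 40 on heterozygous array 3.

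Other genes of entry into mitosis did not reach such low values on the library labelled heterozygous 1. Cks2, a small subunit of Cdk complexes, lay at -1.72 and -1.53 on the knockout arrays and at 0.12, -0.35 and 1.62 on the heterozygous arrays, with no overlap between the groups. The group means were apart by 2.09 ± 0.65 (heterozygous minus knockout, SE, n = 3 and 2, limma adjusted p = 0.444). They average unequal probes, since 1 of the 2 Cks2 probes was blank on knockout array 2. On the library labelled heterozygous 1 that probe read 0.595 and the complete probe -0.358. Aurka, a kinase of centrosome maturation, lay at -1.52 and -1.69 and at -0.88, -0.43 and 1.16. Nek2, a kinase of centrosome separation, lay between -1.52 and -1.40 on the knockout arrays and at -0.22, -0.24 and 1.45 on the heterozygous arrays, and its groups did not overlap either. Plk1, a kinase acting from centrosomes to cytokinesis, lay at -1.42 and -1.41 and at -0.56, -0.13 and 1.53. Foxm1, the transcription factor of many of these genes, lay at -1.23 and -1.18 and at -0.02, -0.41 and 1.02, and its 2 probes differed by at most 0.28 on any array.

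The chromosomal passenger complex corrects wrong attachments and later moves to the central spindle. All 4 of its members were measured. Birc5 (survivin) lay at -2.001 and -2.46 on the knockout arrays and at -1.98, -0.48 and 0.78 on the heterozygous arrays. Its knockout mean was -2.23 ± 0.62 (SE, n = 2, limma adjusted p = 0.137) and its 3 probes all had the same sign on every array. Cdca8 (borealin), the other small subunit, lay at -1.73 and -2.73 and at -2.48, -0.40 and -0.04, which made it, with Cdk1, one of the 2 genes below the pool on heterozygous array 3, and its 2 probes lay there at -0.14 and 0.07. The kinase Aurkb lay at -0.88 and -1.30 and at -1.64, -0.15 and 0.42. The scaffold Incenp was nearer to the pool, at -0.58 and -0.77 and at -0.18, -0.37 and 1.27. Birc5 and Cdca8 were lower in the knockout group at an unadjusted p under 0.05 (10.6% of all genes). Between the groups 0 of the 4 differed at that level, where 3.48% of all genes were higher and 5.34% lower.

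All 6 listed genes of the spindle checkpoint and the anaphase-promoting complex were measured. In the knockout group 4 were lower at an unadjusted p under 0.05 (10.6% of all genes). Bub1, a checkpoint kinase at the kinetochore, lay at -1.88 and -1.99 on the knockout arrays and at -0.90, -0.36 and 1.41 on the heterozygous arrays. The groups did not overlap, with a knockout mean of -1.94 ± 0.56 (SE, n = 2, limma adjusted p = 0.145) and with group means apart by 1.99 ± 0.72 (SE, n = 3 and 2, limma adjusted p = 0.489). Ube2c, the ubiquitin-conjugating enzyme of the anaphase-promoting complex, lay at -2.04 and -2.10 and at -1.002, -0.44 and 1.97, also without overlap. Ttk (Mps1), the kinase that starts the checkpoint, lay at -1.56 and -1.91 and at -1.66, -0.41 and 0.56, where the library labelled heterozygous 1 fell between the knockout arrays. Cdc20, the activator of the complex and the target of the checkpoint, lay at -1.15 and -2.59 and at -2.71, -0.48 and 0.04. Its complete probes lay on both sides of the pool on heterozygous array 3, at -0.67 and 0.76. Another probe of Cdc20 gave values only on knockout array 1 (-0.64) and heterozygous array 2 (-0.83). The checkpoint proteins Bub1b (BubR1) and Mad2l1 (Mad2) lay nearer to the pool in the knockout group, with means of -1.11 and -1.07.

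At the centromere and kinetochore 5 of 6 members were measured. In the knockout group 4 were lower at an unadjusted p under 0.05 (10.6% of all genes). Cenpe, a kinetochore motor that carries chromosomes to the spindle equator, lay at -1.84 and -2.32 on the knockout arrays and at -0.78, -0.66 and 0.45 on the heterozygous arrays. Its knockout mean was -2.08 ± 0.41 (SE, n = 2, limma adjusted p = 0.0987) and the group means were apart by 1.75 ± 0.53 (SE, n = 3 and 2, limma adjusted p = 0.431), although 1 of its probes gave values only on the library labelled heterozygous 1 and on heterozygous array 3. Ndc80 and Nuf2 form 1 arm of the complex that binds microtubules, and Spc25 belongs to its other arm. Ndc80 lay at -1.76 and -2.03 and at -1.78, -0.77 and 0.59. Nuf2 lay at -1.63 and -2.48 and at -2.62, -0.65 and 0.70. Spc25 lay at -2.73 and -1.50 and at -3.94, -1.08 and 0.57, with the lowest value of any of the 40 genes on any array. Nuf2 and Spc25 were lowest on the library labelled heterozygous 1 and Ndc80 lay between the knockout arrays there. Cenpa, the histone variant that marks centromeres, lay at -1.48 and -1.52 on the knockout arrays and at -0.36, -0.12 and 1.69 on the heterozygous arrays, without overlap.

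Spindle motors and assembly factors had all 7 members measured. In the knockout group 6 of the 7 were lower at an unadjusted p under 0.05 (10.6% of all genes). Spag5, Nusap1 and Kif11 had knockout means of -2.65, -2.50 and -2.43, the lowest of the 40 with all probes averaged. Spag5 (astrin), a protein of spindle poles and kinetochores, had the largest mean in the knockout group (-2.65 ± 0.39, SE, n = 2, limma adjusted p = 0.0912) and the largest difference between groups (2.65 ± 0.50, SE, n = 3 and 2, limma adjusted p = 0.243), with values of -2.38 and -2.92 and of -0.05, -0.54 and 0.59. These values rest on unequal probes, since 1 of its 2 probes (-3.02 and -4.28 on the knockout arrays) had no value on the library labelled heterozygous 1. With the other probe alone its knockout mean was -1.65 (limma adjusted p = 0.162) and its difference 1.99 (limma adjusted p = 0.457). Spag5 then no longer ranked first. Kif11, with 1 complete probe, had a lower knockout mean (-2.43), and the complete probe of Nusap1 lay lower still (-2.48 and -3.23 on the knockout arrays). Ube2c, also with 1 complete probe, had a larger difference (2.24). Kif11, the motor that pushes spindle poles apart, had 1 probe and lay at -2.06 and -2.80 and at -1.81, -0.80 and 1.10. Tpx2, which activates Aurka on the spindle, lay at -1.86 and -2.24 and at -1.58, -0.50 and 1.33. Kif22, a motor on chromosome arms, lay at -1.76 and -1.58 and at -0.59, -0.40 and 1.27. In all 3 every heterozygous array lay above both knockout arrays, as in 14.4% of all genes. Nusap1, a microtubule bundler, reached -3.23 on knockout array 2 and -3.06 on the library labelled heterozygous 1. Its mean on knockout array 1 includes a probe at -1.05 that was blank on those 2 arrays. The chromosome arm motor Kif4 had a knockout mean of -1.67, and Kif2c, a kinesin that takes microtubules apart, had one of -0.71.

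Central spindle and cytokinesis genes had 5 of 6 members measured. In the knockout group 3 of them were lower at an unadjusted p under 0.05 (10.6% of all genes). Anln (anillin), a scaffold of the contractile ring, lay at -2.14 and -2.34 on the knockout arrays and at -0.91, -1.22 and 0.33 on the heterozygous arrays. Its knockout mean was -2.24 ± 0.44 (SE, n = 2, limma adjusted p = 0.0986) and the group means were apart by 1.64 ± 0.57 (SE, n = 3 and 2, limma adjusted p = 0.472). Of its 3 probes, 1 was blank on knockout array 1 and the library labelled heterozygous 1, and read -3.98 on knockout array 2. With its complete probes alone the knockout mean was -1.83 (limma adjusted p = 0.170). Prc1, which bundles microtubules of the central spindle, lay at -1.78 and -1.84 and at -1.01, -0.51 and 1.47. Ect2, the exchange factor that activates RhoA at the division plane, lay at -1.99 and -2.35 and at -1.89, -0.48 and 1.86. In each of these 3 every heterozygous array lay above both knockout arrays, as in 14.4% of all genes. Racgap1 and Kif23 form the centralspindlin complex, which recruits Ect2. Racgap1 lay at -1.01 and -1.18 and at -1.72, -0.65 and 1.08, with the library labelled heterozygous 1 lowest. Its values on knockout array 1 and heterozygous array 2 include a probe blank on the other arrays. That probe read -1.45 and -0.83 there, where the complete probe read -0.58 and -0.47. Kif23 lay at -1.12 and -0.76 and at -0.52, -0.45 and 2.50, the second highest of the 40 genes on heterozygous array 3 after Ccna2.

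Chromosome structure genes had 4 of 6 members measured. Top2a, the topoisomerase that untangles sister chromatids, lay at -1.54 and -1.98 on the knockout arrays and at -2.02, -0.16 and 1.23 on the heterozygous arrays. Smc2 and Smc4 form the core of condensin, and Ncapd2 is a subunit of condensin I. Smc2 lay at -1.61 and -2.10 and at -2.44, -0.46 and 1.51, while Smc4 lay at -1.15 and -1.13 and at -0.65, -0.24 and 1.64. Ncapd2 lay at -1.22 and -1.45 and at -0.93, -0.26 and 0.97, with a knockout mean of -1.34 ± 0.49 (SE, n = 2, limma adjusted p = 0.199) and with group means apart by 1.26 ± 0.63 (SE, n = 3 and 2, limma adjusted p = 0.630). Smc4 and Ncapd2 did not overlap between groups, with every heterozygous array above both knockout arrays, as in 14.4% of all genes. Top2a and Ncapd2 were lower in the knockout group at an unadjusted p under 0.05 (10.6% of all genes).

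In the heterozygous group the mean hid opposite values. The 40 means had a median of -0.28, with 26 below the pool (51.2% of all genes), and limma called 0 of 40, where it called 0.322% of all genes. By unadjusted p under 0.05, 0 genes were lower and 0 higher, where 8% and 5.06% of all genes were. The medians of the arrays had an SD of 1.21 in this group and of 0.20 in the knockout group. Without the library labelled heterozygous 1 the median turned to 0.33, with 8 of 40 below the pool (46.9% of all genes) and 0 lower at an unadjusted p under 0.05 (4.87%). Without heterozygous array 3 it was -0.96 with 40 of 40 below (50.6% of all genes), 17 of them at an unadjusted p under 0.05 (8.98%).

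The difference between the groups, in which pool and dye cancel, was above 0 for 40 of 40 genes (51.5% of all genes), with a median of 1.41 and a range from 0.60 for Mad2l1 to 2.65 for Spag5. Limma called 0 of 40 and 0% of all genes, and adjusted p ran from 0.243 to 0.929 over the 40. By unadjusted p under 0.05, 11 of 40 genes were higher in the heterozygous group and 0 lower, where 3.48% and 5.34% of all genes were. Besides Spag5 these were Cks2, Nek2, Foxm1, Plk1, Bub1, Ube2c, Cenpe, Cenpa, Kif22 and Anln. Without heterozygous array 3 the median was 0.71, with 38 of 40 genes above 0 (52.2% of all genes) and 12 at an unadjusted p under 0.05 (4.49%). Without the library labelled heterozygous 1 the median was 2.00 with 40 of 40 above 0 (53.1% of all genes), and 33 genes reached that level (7.54% of all genes). Without knockout array 1 or knockout array 2 the count was 2 or 1 (1.46% and 1.16% of all genes).

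A further list of 126 mitosis genes, not among the 45, showed the same order of arrays at smaller size. Of these, 94 were measured on all arrays, with medians of -0.77 and -0.82 in the knockout group and -0.69, -0.36 and 0.73 in the heterozygous group, and heterozygous array 3 was highest for 79 of 94 (28.2% of all genes). In the knockout group 35 were lower and 1 higher at an unadjusted p under 0.05 (10.6% and 9.82% of all genes), and 0 were called by limma. Between the groups 11 were higher and 1 lower at that level (3.48% and 5.34% of all genes), with 0 called. Ncapg2, a subunit of condensin II, had a knockout mean of -3.27 ± 0.57 (SE, n = 2, limma adjusted p = 0.0977), with values of -2.63 and -3.92 there and of -2.22, -0.72 and -0.17 on the heterozygous arrays. Sgo1 (shugoshin), which guards centromeric cohesion, was at -2.69 ± 0.59 (SE, n = 2, limma adjusted p = 0.108), and Knstrn, a partner of Spag5, at -1.92 ± 0.43 (SE, n = 2, limma adjusted p = 0.110). Pttg1 (securin), the inhibitor of separase, lay at -1.57 and -1.69 on the knockout arrays but stayed below the pool on all heterozygous arrays (-0.94, -0.78 and -0.71). Esco2, which acetylates cohesin in S phase, lay at -2.63 and -2.55 and at -0.82, -0.91 and 2.18. Fbxo5 (Emi1), an inhibitor of the anaphase-promoting complex, lay at -1.90 and -1.87 and at -0.08, -0.75 and 1.79. Haus8, a subunit of augmin, which starts microtubules within the spindle, lay at -1.13 and -1.003 in the knockout group and between -0.34 and 0.76 in the heterozygous group. The largest statistics against the pool in the heterozygous group belonged to Pttg1, Anapc1, Numa1 and Ckap2. Numa1, which anchors microtubules at spindle poles, was above the pool on all arrays (0.33 and 0.61, and 0.84, 0.31 and 0.97), and the spindle protein Ckap2 was below it on all arrays (-2.06 and -2.91, and -3.70, -0.78 and -0.33).

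Within this list, the core subunits of the anaphase-promoting complex, a ubiquitin ligase also used outside mitosis, did not share this order. The 13 measured genes listed under the complex had medians of -0.14 and -0.13 in the knockout group and -0.45, 0.04 and 0.36 in the heterozygous group, and heterozygous array 3 was highest for 5 of 13. Its largest subunit Anapc1 lay at 0.14 and 0.67 and at 1.27, 0.39 and 1.23, Cdc16 lay between -0.64 and 0.04 on all arrays, and Cdc23 lay at 0.996 and 1.05 and at -1.09, -0.31 and 0.35. Of those 5, 3 are partners and not core subunits: Fbxo5, the conjugating enzyme Ube2s (-1.48 and -1.52, and -0.79, -0.43 and 1.11) and the activator Fzr1 (-1.46 and -1.49, and -1.07, -0.49 and 0.96). Cdc16, Cdc23, Ube2s and Fzr1 were named after their values were seen.

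Markers of erythroid cells lay in much the same order. Of 22 listed, 18 were measured, with medians of -2.75 and -2.29 on the knockout arrays and of -0.61, -0.62 and 1.61 on the heterozygous arrays, and heterozygous array 3 was highest in 18 of 18. Below the pool were 17 and 18 of the 18 in the knockout group and 16, 18 and 0 in the heterozygous group, with values from -5.38 to 0.01 and from -5.22 to -0.66 on the former and from 0.21 to 4.35 on heterozygous array 3. The erythroid transcription factor Klf1 lay at -2.69 and -2.45 and at -1.01, -0.59 and 1.26, and the transferrin receptor Tfrc lay at -1.77 and -1.21 and at -0.51, -0.32 and 4.35. On the library labelled heterozygous 1 the lists differed, with a median of -0.61 for erythroid and -1.30 for mitosis genes. B cell markers (10 of 12 measured) had medians of -0.92 and -1.47 on the knockout arrays and of -0.74, -0.37 and -1.39 on the heterozygous arrays. Below the pool were all 10 on both knockout arrays, and 7, 8 and 9 of the 10 on the heterozygous arrays. T cell markers (7 of 10) had medians of 0.31 and 0.12 on the knockout arrays and of 1.24, 0.68 and -0.59 on the heterozygous arrays, and all 7 were below the pool on array 3. Neutrophil markers (8 of 8) had medians of 2.12 and 1.14 and of -0.26, 1.36 and -0.65. Germinal centre B cell markers (4 of 6) had medians of 0.18 and 0.46 and of 1.82, 1.44 and -0.26. Plasma cell markers (3 of 6) had medians of 0.23 and -0.09 and of 1.51, 2.04 and -1.16. Macrophage markers (5 of 7) had medians above the pool on all arrays, of 0.96 and 1.09 and of 1.23, 0.48 and 0.58. Single macrophage markers went apart, with 2 of 5 below the pool on the library labelled heterozygous 1 (from -4.07 to 2.21) and 2 of 5 on heterozygous array 3 (from -2.26 to 0.79). Megakaryocyte markers (5 of 5) had medians of -0.01 and -1.12 and of -1.81, 1.54 and -1.40. The part of these cell types in the values of the mitosis genes was not tested.

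**Figure D3:**
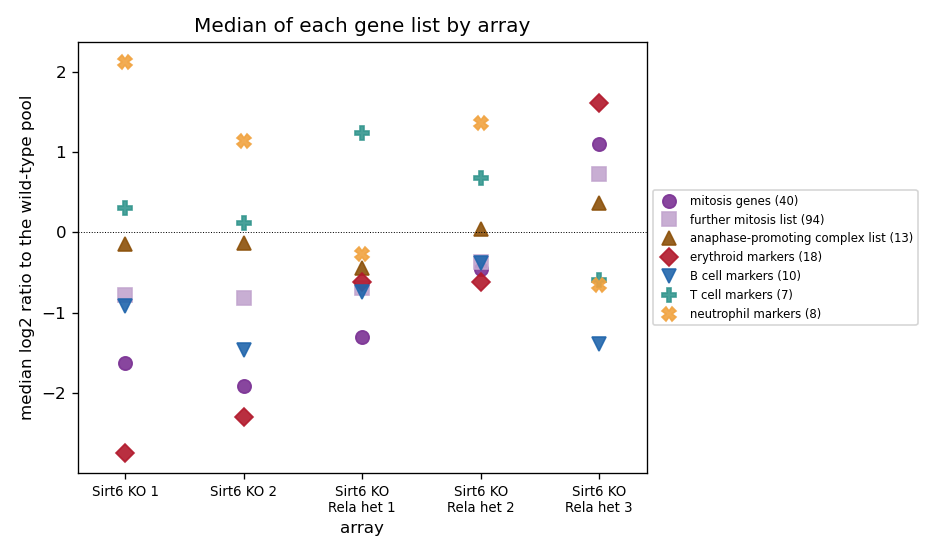
Median log2 ratio to the wild-type pool of 7 gene lists on each array, with the number of measured genes in brackets. Mitosis genes and erythroid markers are both lowest on the knockout arrays and highest on heterozygous array 3 (1.09 and 1.61), where the medians of T cell and B cell markers lie below the pool.

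Probes of 1 gene mostly gave the same side of the pool except on heterozygous array 3. Of the 63 probes 50 had a value on all arrays, 9 on some and 4 on none. The 50 complete probes repeated the pattern, with 49 and 50 below the pool on the knockout arrays, 48 on the library labelled heterozygous 1, 50 on heterozygous array 2, and 47 above it on array 3, which was highest for 49 of 50. The 9 incomplete probes went otherwise on array 3, where 5 of the 7 with a value lay below the pool, such as 1 Anln probe at -1.49 against 0.77 and 1.70 for the other two. On that array 7 of 13 genes with several values had probes on both sides, against 0 on the knockout arrays and heterozygous array 2 and 3 of 10 on the library labelled heterozygous 1. The median range between the probes of a gene was 1.32 on heterozygous array 3, 1.09 on the library labelled heterozygous 1, 0.21 on heterozygous array 2, and 0.60 and 1.19 on the knockout arrays. Single values near the pool on heterozygous array 3 thus lie within the range of a gene's probes.

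**Figure D4:**
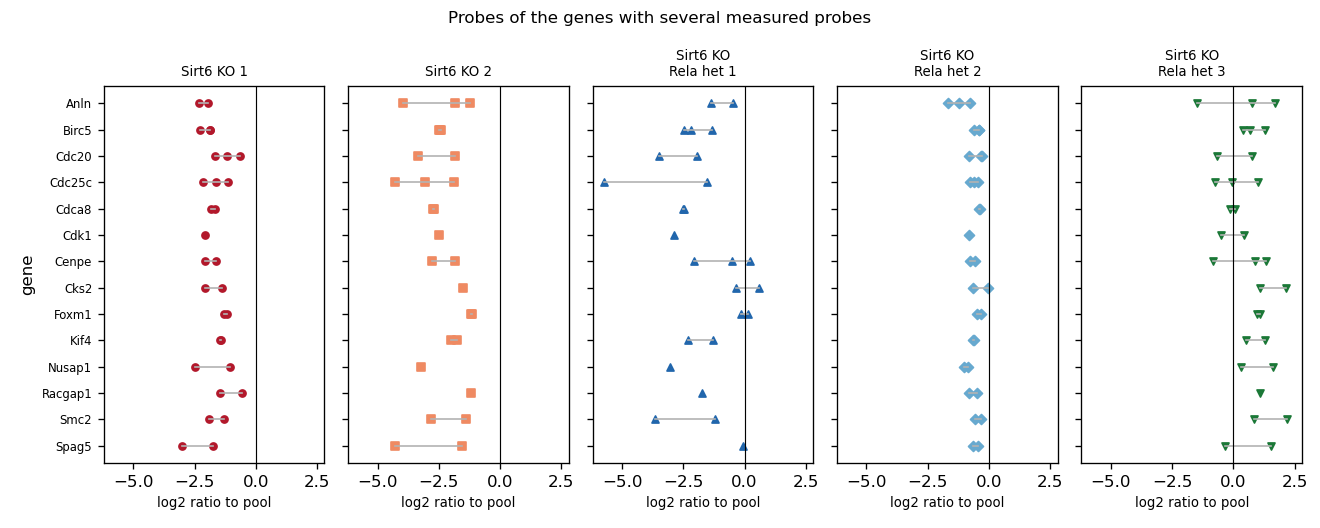
Log2 ratio to the wild-type pool of each measured probe (symbols) of the 14 mitosis genes with more than 1 such probe, by array; grey lines join the lowest and highest probe of a gene. Probes lie on 1 side of the pool on both knockout arrays and heterozygous array 2, and on both sides for 7 genes on heterozygous array 3.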

How the data were processed

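Per the labels mutant RNA carried Cy5 and pool RNA Cy3, and the authors' deposited values were taken to be log2 of Cy5 over Cy3. How they were normalized and why cells are blank is not stated in the sources used here, and spot intensities were not analysed here. Each array was centred on its median. Probes were named through the platform annotation with symbols updated by gene ID, and probes of a gene were averaged, so that a gene's mean can rest on different probes on different arrays. Genes measured on all 5 arrays (9000) were fitted with limma 3.58.1 in R 4.3.3 (a mean for each group, 3 residual and 3.63 prior degrees of freedom), 2-sided, with Benjamini-Hochberg adjustment over all 9000. SE is limma's moderated standard error. The number of arrays limits the precision. The fit was tested on simulated data. Members, role groups, further genes, markers, motifs and tests were chosen with earlier results of these data known. In each role group, genes given array by array include the 4 with the largest absolute moderated t in the knockout group, the 1 largest in the difference, and genes with incomplete or disagreeing probes. From the further list the rule gives the 4 largest per comparison. Other genes were named after their values were seen.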

Additional observations from a re-analysis of the deposited data

How the results depend on the processing

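The count of mitosis genes called at an adjusted p under 0.05 was 0 in each comparison under every alternative except 2. Both were for the knockout group: 38 with only the arrays of the group and 19 when the 25% of genes that varied least were not tested. The former fit had 1 residual degree of freedom, and the latter gave every gene the same spread. Leaving out 1 array gave 3 to 38 genes lower in the knockout group at an unadjusted p under 0.05 (29 with all arrays), 0 to 17 in the heterozygous group (0) and 1 to 33 higher in the difference (11). It gave means below the pool for 8 to 40 genes in the heterozygous group (26), for 39 to 40 in the knockout group, and medians of the heterozygous group from -0.96 to 0.33, so that its sign depends on the array left out. With quantile normalization 6 genes were higher in the difference and 1 lower in the heterozygous group, the latter also 1 after scaling to the same median absolute deviation and 4 without the least variable genes. Where 1 array remained in a group, its spread was taken from the other group. Averaging only probes with a value on all arrays was added after the data were seen. It moved the knockout mean of Spag5 from -2.65 to -1.65 and that of Anln from -2.24 to -1.83.

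Replicate numbers are shared between the groups, but nothing in the labels says that they pair the spleens. Same-numbered arrays deviated from their group means in opposite directions (r = -0.41 and -0.40 across genes). With 2 knockout arrays, their deviations are mirror images of each other. The 2 correlations are therefore not separate checks and cannot settle the pairing. With the replicate number as a replicate block (duplicateCorrelation) the knockout median was -2.19 in place of -1.79, and with the block as a fixed term 1 gene was higher in the difference in place of 11, on 1 residual degree of freedom.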
